A study of Homo sapiens with 6 samples.

Results

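The genes described here are the subunits of NF-kB and the inhibitors that NF-kB itself induces, 10 genes chosen by symbol and found by Ensembl ID in a table of 38900 genes. They comprise the subunit genes NFKB1, NFKB2, RELA, RELB and REL, the IkB genes NFKBIA and NFKBIE, and the feedback regulators TNFAIP3, BIRC3 and TNIP1. All 10 had a row, and all 10 were among the 13928 genes that averaged 10 or more normalized counts and were therefore tested. RNA was measured by polyA RNA sequencing in hTERT RPE1 cells, an established human line of retinal pigment epithelial cells immortalised with telomerase. Every culture had been held confluent for 5 days so that its cells left the cycle, and was then given fresh medium for 6 hours with 100 nM combretastatin A4 (CA4), a drug that binds tubulin and takes microtubules apart, or with the solvent at 0.1% DMSO. Each treatment has 3 libraries, numbered 1 to 3, all from this 1 line, and the labels do not say whether they came from separate cultures, so p-values measure the spread between these libraries, which may be technical.

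NF-kB is a family of dimers built from the RELA, RELB and REL proteins and from p50 and p52, the processed products of NFKB1 and NFKB2. In resting cells IkB proteins such as those encoded by NFKBIA and NFKBIE hold the dimers in the cytoplasm, and a signal that activates the IkB kinase leads to destruction of IkB and release of the dimer to DNA sites called kappaB sites. Several of its targets switch it off again: new IkB, and the ubiquitin-editing enzyme A20 from TNFAIP3 with its partner from TNIP1. Another target, the ubiquitin ligase cIAP2 from BIRC3, restrains the NFKB2 branch.

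Sequence upstream of RefSeq start sites of these genes is shown first, because the kappaB consensus is the element through which the family is known to regulate its own members. Some of these stretches lie inside the gene as GENCODE 29 annotates it. RefSeq windows (GRCh38.p14), 250 bases before to 50 bases after a start site, were at hand for 8 of the 10 genes, all except RELB and NFKBIE, and made 13 windows since some genes have more than 1 start site. The 10-letter kappaB consensus, searched on both strands with overlapping matches counted as 1 place, was found in 8 of these 13 windows and in at least 1 window of 7 of the 8 genes. Of all 35116 RefSeq windows of this length, 11.27% held it. The lines below are 5′ to 3′ on the gene's own strand, with matches in capitals and with bases counted from the start site, which is 0. Where GENCODE 29 annotates exon bases in the stretch, only 30 bases are given.
NFKBIA, chr14:35404796-35404855, minus strand, bases -106 to -47: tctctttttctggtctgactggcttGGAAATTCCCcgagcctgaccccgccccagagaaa
TNFAIP3, chr6:137867188-137867217, plus strand, bases -71 to -42: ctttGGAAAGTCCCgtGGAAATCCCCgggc
BIRC3, chr11:102317260-102317383, plus strand, bases -224 to -101: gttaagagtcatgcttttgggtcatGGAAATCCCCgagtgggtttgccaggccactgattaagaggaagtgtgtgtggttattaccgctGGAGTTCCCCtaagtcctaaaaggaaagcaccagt
NFKB1, chr4:102501300-102501329, plus strand, bases -59 to -30: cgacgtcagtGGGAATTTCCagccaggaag
NFKB2, chr10:102394462-102394491, plus strand, bases -116 to -87: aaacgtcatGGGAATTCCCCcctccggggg
REL, chr2:60881518-60881547, plus strand, bases -56 to -27: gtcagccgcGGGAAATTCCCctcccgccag
TNIP1, chr5:151081057-151081086, minus strand, bases -52 to -23: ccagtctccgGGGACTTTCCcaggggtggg
RELA, chr11:65663878-65663937, minus strand, bases -80 to -21, shown as the gene with no match in either of its windows: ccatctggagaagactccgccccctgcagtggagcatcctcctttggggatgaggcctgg
TNFAIP3, BIRC3 and 2 of the NFKB2 windows held 2 places each. A match says only that these letters are there, and binding was not measured.

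**Figure D1:**
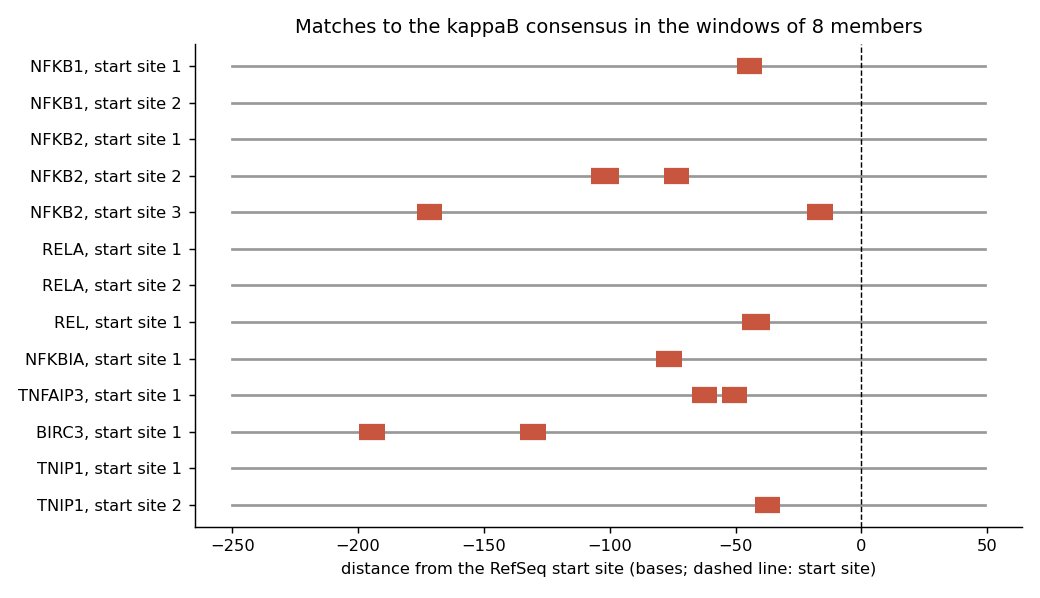
Places that match the kappaB consensus (red) along the 13 RefSeq windows of 8 genes, by distance in bases from the start site (dashed line). All places lie upstream of the start site, between bases -199 and -12, and the 2 RELA windows hold none.

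The libraries held from 19524936 to 22538004 recovered reads, and log2 values correlated between libraries with Pearson's r from 0.94 to 0.97 across genes, which are not independent replicates. The sum of 7 structural markers checked for this epithelial line, mostly VIM, was 122106 to 143887 normalized counts in DMSO and 136461 to 145552 in CA4. CDH1 and EPCAM had means under 10. KRT18 was at 9244.4 ± 1035 in DMSO and 12805.5 ± 1957 in CA4 (SD, n = 3), without overlap, and was not called (limma adjusted p = 0.0849). KRT8 and KRT7 overlapped between the groups, and KRT19 ran from 0 to 67 reads between libraries. Of 9 markers of mature retinal pigment epithelium, 6 reached a mean of 10 normalized counts, RPE65 lay between 13.5 and 40.8, and TTR was listed at 0 in all libraries. The sum of those 9, mostly MITF and OTX2, was 1144 to 1850 in DMSO and 650 to 1049 in CA4. MITF was at 885 ± 239 in DMSO and 457 ± 170 in CA4 (SD, n = 3), with overlap, and was not called (log2 fold change -0.98, limma adjusted p = 0.1). Of the 6, 1 was called lower, the transcription factor gene OTX2 (log2 fold change -1.11, limma adjusted p = 0.0158), beside 1.97% of all tested genes called lower. The part of this shift in the results on NF-kB genes was not tested, and in bulk RNA fewer cells of a kind and less RNA per cell cannot be told apart. Of 7 leukocyte markers, CD3E was listed at 0 in all libraries, PTPRC did not exceed 10.6, and the sum, mostly CD68, was 844 to 1038 in DMSO and 664 to 847 in CA4. Against that sum, LYZ was at 15.9 to 18 normalized counts in DMSO and 21.3 to 32.3 in CA4 and was not called (limma adjusted p = 0.266). PTPRC had 4, 3 and 3 reads in DMSO and 11, 4 and 5 in CA4, and CD79A had 2, 2 and 1 in DMSO and 2, 6 and 5 in CA4, both under the filter. The part of these markers in the results on NF-kB genes was not tested. The sum of 5 endothelial markers was 1138 to 1661 in DMSO and 1472 to 3470 in CA4, with the highest value in CA4 replicate 3. Of the 5, 0 were called in limma, edgeR or DESeq2. In limma 1 had an unadjusted p under 0.05, beside 23% of all tested genes in either direction. The part of the endothelial markers in the results on NF-kB genes was not tested.

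By limma's moderated test, with 0.05 as the limit of the adjusted p, 4 of the 10 genes were called and all 4 were higher in CA4. Of all tested genes 4.94% were called, 2.97% as higher and 1.97% as lower. They were NFKB2, NFKBIA, TNFAIP3 and BIRC3. An unadjusted p under 0.05 was reached by 8 of the 10, all higher in CA4 and none lower, beside 23% of all tested genes in either direction. In these 8 all 3 CA4 libraries lay above all 3 DMSO libraries, as in 14.3% of all tested genes, and the groups overlapped in REL and NFKBIE. The median log2 fold change of the 10 was 0.79, beside -0.01 over all tested genes. In the text that follows, gene positions are those of GENCODE 29 on GRCh38, levels are the authors' normalized counts, and fold changes are on the scale log2(normalized count + 1) with limma's standard error (SE).

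**Figure D2:**
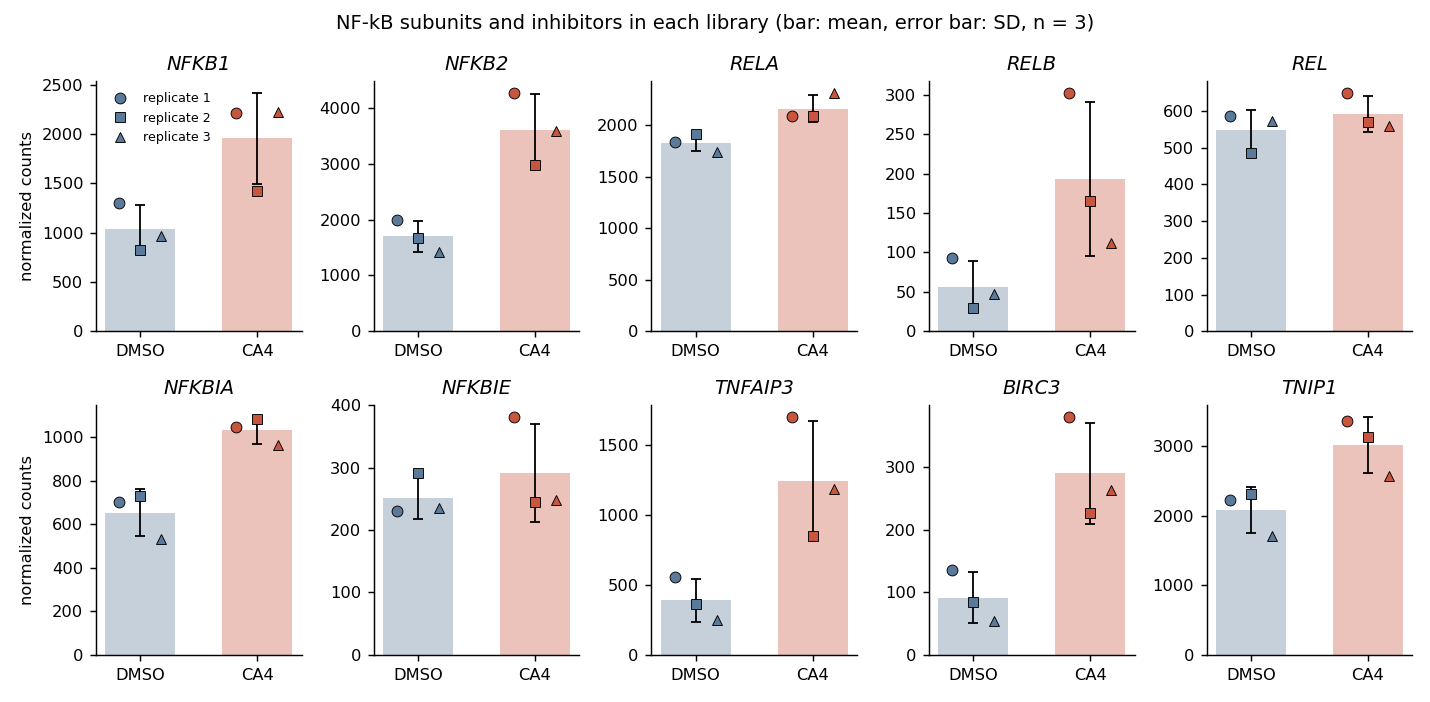
Normalized counts of each gene in the 3 DMSO (blue) and 3 CA4 (red) libraries, with marker shape giving the replicate number, bars the group mean and error bars the SD (n = 3), on axes that start at 0. Every CA4 library lies above every DMSO library in 8 of the 10 panels, and the groups overlap in REL and NFKBIE.

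Among the subunits, NFKB2 (ENSG00000077150, chr10:102394110-102402529, plus strand) rose. It encodes p100, which acts as an inhibitor until it is processed to p52. In replicates 1, 2 and 3, in this order here and for every gene that follows, DMSO gave 1993, 1676 and 1425 normalized counts and CA4 gave 4268, 2982 and 3580. The lowest CA4 library was thus about 1.5 times the highest DMSO library. The log2 fold change was 1.09 (SE 0.16, limma adjusted p = 0.0166), a fold of 2.12 with a 95% interval from 1.63 to 2.76.

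NFKB1 (ENSG00000109320, chr4:102501329-102617302, plus strand), which encodes p105 and its product p50, was at 1303, 825 and 970 normalized counts in DMSO and 2219, 1423 and 2227 in CA4. The groups did not overlap, but the lowest CA4 library, replicate 2, was only slightly above the highest DMSO library, replicate 1. At a log2 fold change of 0.92 (SE 0.22) it was not called (limma adjusted p = 0.0585).

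RELB (ENSG00000104856, chr19:45001430-45038198, plus strand), the partner of p52 in the non-canonical dimer, had the widest spread of the 10. It was at 92.7, 29.9 and 47.5 normalized counts in DMSO and 302.5, 165 and 113 in CA4. The lowest CA4 library and the highest DMSO library rest on 101 and 96 reads, with exact 95% Poisson intervals of 82.3 to 123 and 77.8 to 117 that cover counting error only. The log2 fold change of 1.78 was the highest of the 10, but its SE of 0.48 was too, and the limma adjusted p was 0.079. The 95% interval of the fold ran from 1.58 to 7.48.

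RELA (ENSG00000173039, chr11:65653596-65663094, minus strand), which encodes p65, the transactivating subunit of the most common dimer, was at 1838, 1913 and 1743 normalized counts in DMSO and 2087, 2087 and 2314 in CA4. Its libraries were close together, and the groups did not overlap. Its log2 fold change was 0.24 (SE 0.08, limma adjusted p = 0.144), with a 95% interval of the fold from 1.03 to 1.35. Scaling every library to the same total lowered this log2 fold change to 0.14 and shifted the median over all genes by about the same amount, from -0.01 to -0.11.

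REL (ENSG00000162924, chr2:60881521-60931610, plus strand), the subunit known best from lymphocytes, was at 587, 487 and 573 normalized counts in DMSO and 649, 570 and 560 in CA4. The 2 groups overlapped. Its log2 fold change was 0.11 with a 95% interval from -0.16 to 0.39 (limma adjusted p = 0.623), and scaling to equal library totals brought it to 0.01. In GENCODE 29, 43.3% of the exon bases of REL also belong to AC010733.2, a gene on the same strand. That gene had no row in the deposited counts. How reads from the shared bases were counted is not given in the sources used here, and their part in the REL value was not tested. For the other 9 genes at most 1.88% of the exon bases lay in another gene, and at most 1.06% of the 50-base words of their transcripts occurred in transcripts of other genes.

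**Figure D3:**
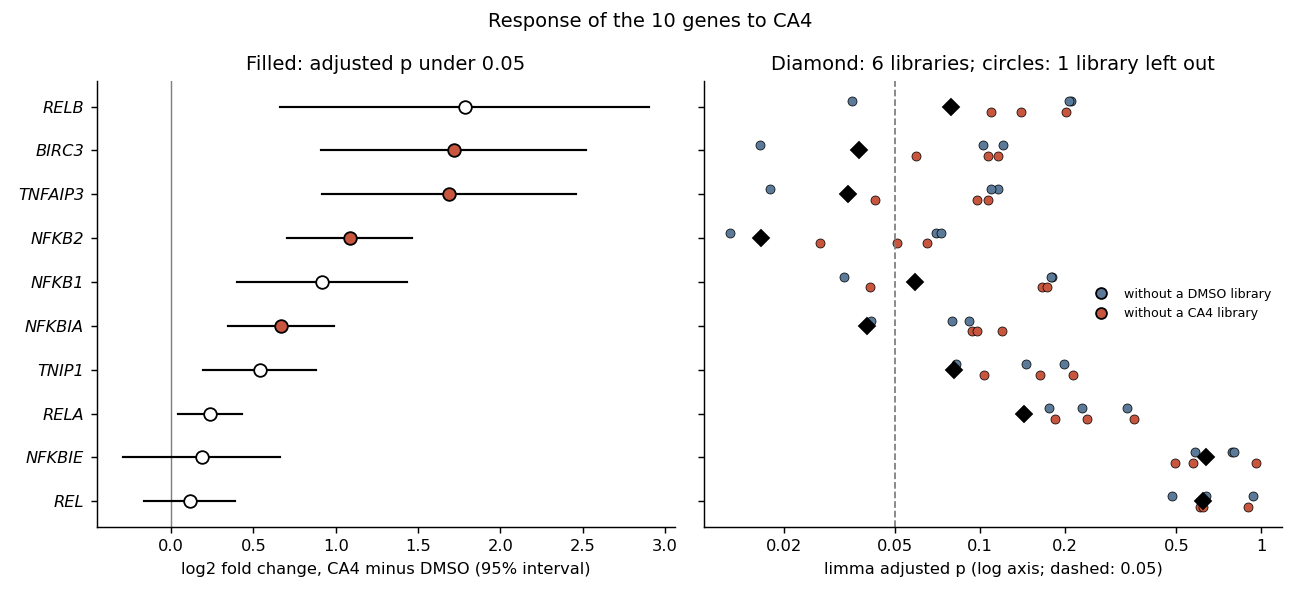
Left, log2 fold change of each gene with its 95% interval, filled where limma's adjusted p was under 0.05 (NFKB2, NFKBIA, TNFAIP3 and BIRC3). Right, limma's adjusted p on a log axis with all 6 libraries (diamond) and with each library left out (circles), with the threshold dashed; most circles of the 4 called genes lie to its right.

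Levels can be compared between genes only per length. Per kilobase of GENCODE 29 exon, NFKB2 was at 379 ± 63.5 normalized counts in DMSO, RELA at 335 ± 15.5, NFKB1 at 165 ± 39.2, REL at 41.7 ± 4.11 and RELB at 18.7 ± 10.7 (SD, n = 3). NFKB2 and RELA did not differ beyond their spread there. In CA4 the order began with NFKB2 at 805 ± 143, RELA at 396 ± 24 and NFKB1 at 313 ± 73.8, and RELB, at 63.7 ± 32.3, and REL, at 45 ± 3.74, did not differ beyond the spread of RELB (SD, n = 3). Among the inhibitors the order in DMSO was TNIP1 at 360.5 ± 57, NFKBIA at 275 ± 45.4, NFKBIE at 97.7 ± 13, TNFAIP3 at 77.3 ± 30.5 and BIRC3 at 12.2 ± 5.44 (SD, n = 3), where NFKBIE and TNFAIP3 lay within their spread. In CA4 TNFAIP3, at 247 ± 85.3, was above NFKBIE, at 113 ± 30.2 (SD, n = 3), in each of the 3 libraries. As a share of the 5 subunits per kilobase, NFKB2 accounted for 41.8%, 41.4% and 37.3% in DMSO and for 51.8%, 48.5% and 48.2% in CA4. For RELA the share was 31.6%, 38.8% and 37.5% in DMSO and 20.8%, 27.8% and 25.6% in CA4, so that the groups did not overlap in either share. NFKB1 stayed between 14.6% and 21.5% in all libraries, and the RELB shares, 1.09% to 2.87% in DMSO and 2.24% to 5.42% in CA4, overlapped. REL made up 4.10% to 5.11% in DMSO and 2.56% to 3.15% in CA4, again without overlap. The shares are parts of a sum that was itself 1064, 903 and 851 normalized counts per kilobase in DMSO and 1837, 1372 and 1657 in CA4, and the mean levels of RELA and REL per kilobase were not lower in CA4. These shares are a description, in which REL counts low because its annotated exons run to 13.17 kilobases.

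**Figure D4:**
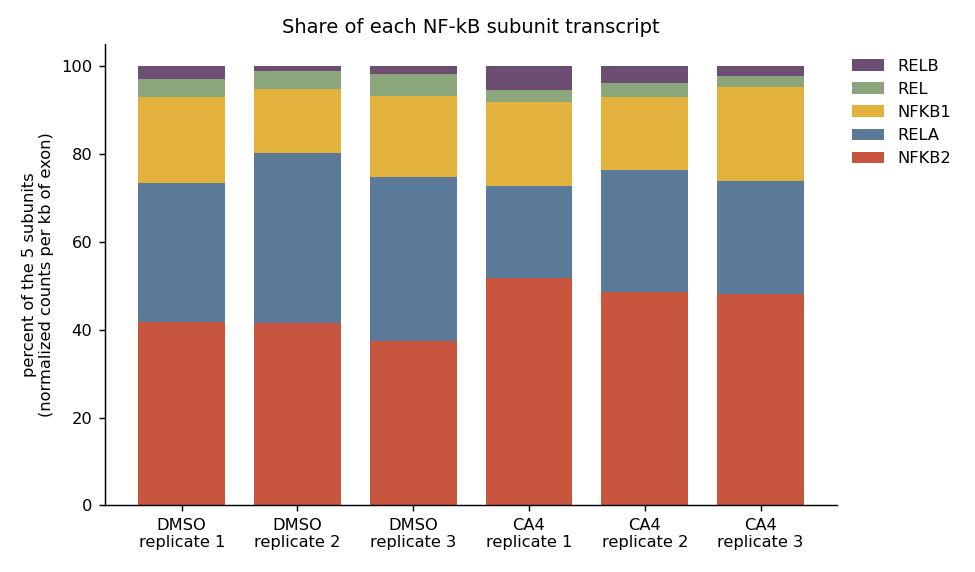
Share of each of the 5 subunit transcripts in each library, in percent of their summed normalized counts per kilobase of exon. The NFKB2 segment is between 37.3% and 41.8% in DMSO and between 48.2% and 51.8% in CA4, and the RELA segment is smaller in each CA4 library than in each DMSO library.

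Of the IkB genes NFKBIA rose and NFKBIE was not called. NFKBIA (ENSG00000100906, chr14:35401511-35404749, minus strand) encodes IkB alpha, the inhibitor that is degraded and remade within a single NF-kB pulse. It rose from 700, 729 and 530 normalized counts in DMSO to 1048, 1084 and 963 in CA4. Its CA4 libraries were close together, and all lay well above the DMSO libraries. The log2 fold change was 0.67 (SE 0.14, limma adjusted p = 0.0397), a fold of 1.59. Scaling to equal library totals ended the call, at a log2 fold change of 0.57 (limma adjusted p = 0.0653).

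NFKBIE (ENSG00000146232, chr6:44258166-44265788, minus strand) encodes IkB epsilon, a slower inhibitor of the same kind. It was at 230, 291 and 235 normalized counts in DMSO and 382, 245 and 249 in CA4. Only CA4 replicate 1 stood above the DMSO libraries. The log2 fold change was 0.19 with a 95% interval from -0.29 to 0.66 (limma adjusted p = 0.638). Leaving out CA4 replicate 1 turned it to -0.02 (limma adjusted p = 0.961). Whether NFKBIA and NFKBIE differed in their response was not tested.

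Both ubiquitin enzymes of the feedback rose about 3-fold. TNFAIP3 (ENSG00000118503, chr6:137867188-137883312, plus strand) was at 555, 365 and 251 normalized counts in DMSO and 1704, 849 and 1184 in CA4. The groups did not overlap, but the gap between them was smaller than the roughly 2-fold range within each group. Its log2 fold change was 1.69 (SE 0.33, limma adjusted p = 0.034), a fold of 3.23 with a 95% interval from 1.89 to 5.51.

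BIRC3 (ENSG00000023445, chr11:102317450-102339403, plus strand) was at 135, 85.1 and 54.1 normalized counts in DMSO and 381, 227 and 263 in CA4. Replicate 1 was the highest in either group, as in TNFAIP3. The log2 fold change was 1.72 (SE 0.35, limma adjusted p = 0.0369), a fold of 3.29 with a 95% interval from 1.88 to 5.75. BIRC2, its close paralog, was at 1956, 1595 and 1502 normalized counts in DMSO and 2678, 1943 and 2079 in CA4. Its groups overlapped, and its log2 fold change of 0.40 (SE 0.15) did not pass (limma adjusted p = 0.166).

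TNIP1 (ENSG00000145901, chr5:151029945-151093577, minus strand), which encodes the A20-binding protein ABIN1, was among the more abundant of the 10, at 2234, 2320 and 1710 normalized counts in DMSO and 3357, 3138 and 2577 in CA4. Replicate 3 was the lowest in each group, and the groups did not overlap. The increase, 0.54 on the log2 scale (SE 0.15), did not pass the test in limma (adjusted p = 0.081).

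None of the 4 calls held in every fit that left out a library. Without DMSO replicate 2, DMSO replicate 3, CA4 replicate 1 or CA4 replicate 3, limma called 0 of the 10 genes, with 7 or 8 at an unadjusted p under 0.05. The share of all tested genes at that unadjusted limit was not worked out for these 4 fits, and was 23% with all 6 libraries. These fits called 81 to 156 of the 13928 genes against 688 with all libraries, with 0.452%, 0.359%, 0.668% and 0.639% of all tested genes as higher. Without CA4 replicate 2 it called 3 of the 10, NFKB1, NFKB2 and TNFAIP3, and 2.14% of all tested genes as higher. Without DMSO replicate 1 it called 6, adding NFKB1 and RELB to the 4, and 4.34% of all tested genes as higher. That library was the highest of the DMSO libraries in 6 of the 10 genes and the lowest in 1. The sizes moved less than the calls: over these 6 fits the log2 fold change ran from 0.96 to 1.22 for NFKB2, from 1.41 to 1.98 for TNFAIP3, from 1.39 to 2.04 for BIRC3 and from 0.53 to 0.76 for NFKBIA. Without CA4 replicate 3 they were 1.08, 1.70, 1.77 and 0.72 in that order. A quasi-likelihood test in edgeR on the recovered reads called the same 4 genes, and 2.8% of all tested genes as higher. DESeq2 called 7, these 4 and NFKB1, RELB and TNIP1, and 6.92% of all genes with an adjusted p as higher.

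Between libraries, the coefficient of variation of TNFAIP3 was 39.4% in DMSO and 34.6% in CA4, where counting alone would give 5.13% and 3.03%. In RELA it was 4.64% and 6.06%, against 2.28% and 2.22%. The ratio of the spread to counting error ran from 1.87, for NFKBIA in CA4, to 11.4, for TNFAIP3 in CA4.

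Ratios of 2 genes within a library do not depend on how libraries are scaled, and 5 were tested by exact permutation of the library labels, two-sided, which cannot give a p below 0.1 for 3 libraries against 3. The log2 ratio of NFKBIA to RELA was -1.39, -1.39 and -1.72 in DMSO and -0.99, -0.94 and -1.26 in CA4. It was the only one of the 5 ratios whose groups did not overlap, with a difference of 0.43 (exact p = 0.1, adjusted over the 5 ratios 0.333). For TNFAIP3 to NFKBIA the difference was 1.02 (exact p = 0.2, adjusted 0.333), with CA4 replicate 2 at the level of DMSO replicate 1. For RELB to RELA it was 1.54 (exact p = 0.2, adjusted 0.333), and CA4 replicate 3 lay just under DMSO replicate 1. The ratios of NFKB2 to NFKB1 and of REL to RELA differed by 0.17 and -0.13 (exact p = 0.4 and 0.5, both adjusted 0.5). No ratio therefore passed.

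Other genes of the pathway were taken by role from general knowledge, with earlier results of these data known. Of 24 effector targets, genes that NF-kB is known to induce for inflammation and survival, 19 were tested and 8 were called, all higher (42.1% of the 19, beside 2.97% of all tested genes called higher), with a median log2 fold change of 0.93. CFLAR, an inhibitor of caspase 8, rose from 1580 ± 205 to 3187 ± 259 normalized counts (SD, n = 3), by 1.02 on the log2 scale (SE 0.12, limma adjusted p = 0.00835). With CXCL8, the gene of the chemokine interleukin 8, it was 1 of 2 among the 8 whose call held in all 6 fits without a library. CXCL8 and the cytokine gene IL6 rose by 2.98 and 2.61 in log2 units (limma adjusted p = 0.0109 and 0.0117), and IL6 lost its call without DMSO replicate 3. The other called targets were LIF, SOD2, NUAK2, ICAM1 and PTGS2, and LIF and NUAK2 lost their calls in 4 of those 6 fits and SOD2, ICAM1 and PTGS2 in 5. Of the 19 tested targets, 17 had a log2 fold change above 0, called or not, and 2 had one below 0. Those 2 were IRF1 at -0.33 and MMP9 at -0.39, neither of them called (limma adjusted p = 0.433 and 0.682). Not every known target was measurable: IER3 had at most 2 reads in any library, and CXCL2, CXCL3, CCL20 and BCL2A1 stayed under the filter.

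Among 19 tested of 20 other inhibitors, 2 were called, both higher (10.5% of the 19, beside 2.97% of all tested genes called higher), and the median log2 fold change was 0.24. NFKBIZ, the gene of the nuclear protein IkB zeta, rose from 345 ± 61.8 to 721 ± 104 normalized counts (SD, n = 3), by 1.07 on the log2 scale (SE 0.17, limma adjusted p = 0.0179). It was no longer called when DMSO replicate 3 or CA4 replicate 3 was left out. ZC3H12A, the gene of an RNase that degrades cytokine mRNAs, rose with a log2 fold change of 0.48 (limma adjusted p = 0.0427), and its call was lost in all 6 fits without a library, without the filter and after scaling to equal totals. USP21, a deubiquitinase gene, was at 375 ± 32.5 in DMSO and 269 ± 12.2 in CA4 (SD, n = 3; limma adjusted p = 0.0685).

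Of 26 kinases and adaptors, all tested, 2 were called, both higher, with a median of 0.10. That is 7.69% of the list, beside 4.94% of all tested genes called in either direction and 2.97% called higher. IKBKB encodes the kinase that marks IkB alpha for destruction. It rose from 1133 ± 35 to 1688 ± 46.8 normalized counts (SD, n = 3), by 0.57 on the log2 scale (SE 0.08, limma adjusted p = 0.0129). TRAF1, an adaptor of TNF receptors, went from 214, 164 and 124 normalized counts in DMSO to 762, 431 and 680 in CA4, up by 1.89 on the log2 scale (SE 0.27, limma adjusted p = 0.0156). Both calls were lost in 4 of the 6 fits without a library, those without DMSO replicate 2 or 3 or without CA4 replicate 1 or 3. IRAK2, a kinase of the interleukin 1 pathway, had a log2 fold change of 0.81 and did not pass (limma adjusted p = 0.0755).

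Of 16 receptor genes 12 were tested and 4 were called, 2 higher and 2 lower, with a median of 0.00. That is 33.3% of the 12, beside 4.94% of all tested genes called in either direction. TLR3, a receptor for double-stranded RNA, fell from 122, 108 and 155 normalized counts in DMSO to 45.4, 67.3 and 45.7 in CA4, with -1.27 as log2 fold change (SE 0.25, limma adjusted p = 0.033). TLR4, the receptor for bacterial lipopolysaccharide, fell from 1022 ± 69.2 to 739 ± 36 (SD, n = 3), a log2 fold change of -0.47 (limma adjusted p = 0.0385). TNFRSF12A, the receptor of TWEAK and a known activator of the NFKB2 branch, rose from 7359 ± 1387 to 12124 ± 1539 (SD, n = 3), a log2 fold change of 0.73 (limma adjusted p = 0.0392). The call of TNFRSF12A was lost under quantile normalization and after scaling to equal totals, as was that of TNFRSF10B, a TRAIL receptor, at 0.50 (limma adjusted p = 0.0436), which was also lost without the filter. With a library left out, the TNFRSF12A call held in 2 of the 6 fits and the TNFRSF10B call in 1. The TLR3 call held in 2 of the 6 fits without a library and the TLR4 call in 0, where the TLR4 adjusted p ran from 0.0587 to 0.128 in limma.

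Of 14 ligand genes 6 were tested and limma called 0, beside 4.94% of all tested genes called in either direction. An unadjusted p under 0.05, reached by 23% of all tested genes, was found for 1 ligand gene. That gene, IL1B, was at 182, 71.1 and 59.8 normalized counts in DMSO and 496, 220 and 250 in CA4, without overlap (log2 fold change 1.70, SE 0.46, limma adjusted p = 0.0808). DESeq2 called it and edgeR called 0. IL33 and IL1A, the next by adjusted p, were at -0.78 and 0.77 in log2 fold change (limma adjusted p = 0.407 and 0.417), and their groups overlapped. TNF had at most 1 read in any library, and LTA, CD40LG and TNFSF11 had 0 reads in each of them, which allows an expected count of up to 3 per library.

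**Figure D5:**
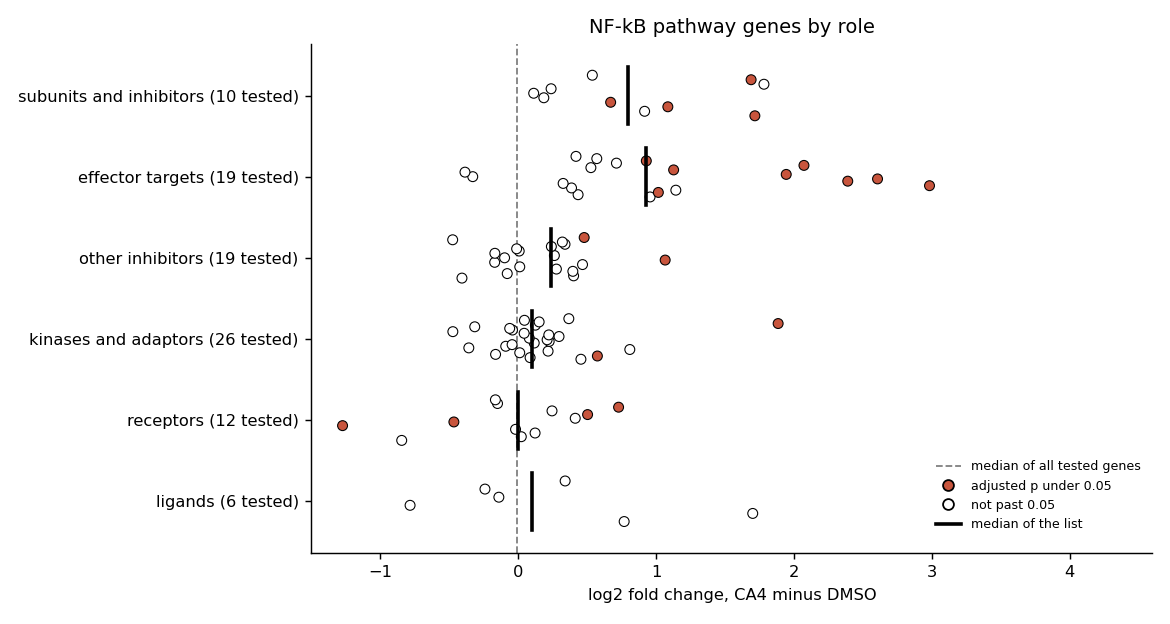
Log2 fold changes of tested genes by role in the pathway, filled where limma's adjusted p was under 0.05, with the median of each list (bar) and of all tested genes (dashed). The medians are 0.79 for the subunits and inhibitors, 0.93 for the effector targets and 0.24 or less for the other 4 lists.

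To describe which other genes followed the 10 across libraries, the mean of their z-scores was correlated with the log2 values of 11679 other genes that averaged 50 or more normalized counts. The profile stood at -0.33, -0.75 and -1.07 in DMSO and at 1.21, 0.40 and 0.53 in CA4. The most alike were HIVEP2, CEACAM19, PPP1R15A, COPB1 and IKBIP, with Pearson's r over 6 libraries from 0.994 to 0.9997. All 288 genes with r of at least 0.95 share these libraries and the treatment, and r is given as a description. Of the 5, HIVEP2, CEACAM19 and PPP1R15A rose by 0.79, 1.52 and 0.63 in log2 units (limma adjusted p = 0.0347, 0.0246 and 0.034), and COPB1 and IKBIP did not pass (limma adjusted p = 0.0677 and 0.0608). The 5 were picked by a profile that itself lies higher in CA4, so these p-values are not independent of the choice.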

How the data were processed

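The authors deposited 1 table of normalized counts, a signal in which, per the file headers, each of 6 columns is a library and each row an Ensembl gene. Per the submitters' processing notes, Trim Galore 0.6.6, FastQC 0.12.1, STAR 2.7.9a, Salmon 1.8.0, DESeq2 1.44.0 and build GRCh38 were used; their roles, the annotation release and the strand setting are not given in the sources used here. All values were whole multiples of the value of 1 read in their library (tolerance 0.01), which gave back whole reads.

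limma 3.58.1 in R 4.3.3 was fitted to log2(normalized count + 1) of the 13928 genes with a mean of at least 10, with treatment as the only term and a variance trend. The two-sided p-values got a Benjamini-Hochberg adjustment over all of these genes, with 0.05 as the threshold. Intervals are limma's 95% intervals. Alternatives were pseudocounts of 0.1 and 5, no filter, a stricter filter at a mean of 50, quantile normalization, scaling to equal library totals, no variance trend, the replicate number as a block, each library left out, and edgeR 4.0.16 (quasi-likelihood, TMM) and DESeq2 1.42.0 on the recovered reads. The fits were also run on simulated counts with the same dispersion for every gene and no replicate effect. That differs from the spread seen in these genes, so the simulation says nothing about how reliable their calls are. Symbols were looked up in a supplied gene table, which had 35803 of 38900 IDs. Lengths, overlaps and coordinates of genes came from GENCODE 29.

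The members and lists were chosen with earlier results of these data known. Genes named are all 10 members, up to 3 genes of each pathway list with the smallest adjusted p, and the 5 most alike in pattern. BIRC2, TNFRSF10B, IRF1, MMP9 and the remaining called or unmeasured list genes were named after their values were seen. Beyond the 7 leukocyte markers given, 1 further marker gene is not reported here.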

Additional observations from a re-analysis of the deposited data

How the results depend on the processing

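Direction was kept by all 10 genes in every alternative except NFKBIE, whose log2 fold change ran from -0.0234 (without CA4 replicate 1) to 0.297 (without CA4 replicate 2) when 1 library was left out. Of 10 genes, limma called 4, beside 2.97% of all tested genes called higher. The count was 3 to 4 under both pseudocounts, both filters, quantile normalization, scaling to the same total and edgeR. In those fits the share of all tested genes called higher ran from 1.6%, without the filter, to 4.11%, at a mean of at least 50. Without the variance trend 0 of the 10 were called, and 103 of all genes against 688. Of the 10, 8 then had an unadjusted p under 0.05, a share not worked out over all genes for that fit. In that fit 0 other inhibitors, 0 kinases and adaptors, 0 receptors and 1 effector target were called, against 2, 2, 4 and 8. DESeq2 called 7 of the 10, 1613 of all genes, 4 other inhibitors and 1 ligand (against 0). Without the filter 1 other inhibitor was called, and 2 receptors were under quantile normalization and under scaling to the same total. Scaling to the same total moved the share of higher genes among all calls from 60% to 34.8%.

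Leaving out 1 library gave 0 to 6 of the 10 genes, 81 to 994 of all genes, 0 to 1 other inhibitors, 0 to 3 kinases and adaptors, 0 to 3 receptors, 0 to 1 ligands and 2 to 8 effector targets. A smaller test has less power by construction; why the counts of all genes and of the 10 rose without DMSO replicate 1 (994 and 6) was not tested.

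With the replicate number as a block, limma called 7 of the 10 (also NFKB1, RELB and TNIP1), 2397 of all genes, 7 other inhibitors, 6 kinases and adaptors and 1 ligand. In that fit the limma adjusted p was 0.00325 for NFKB1, 0.00748 for RELB and 0.00417 for TNIP1. Deviations of same-numbered libraries correlated at 0.202, 0.159 and 0.0588. The labels tie no number to a shared culture or day, so the libraries were not treated as paired. Whether the numbers mark pairs cannot be told from the labels, and the calls of these 3 genes depend on it. The 5 ratios kept their direction in the alternatives run on them: both pseudocounts, each library left out, and the replicate number as a block. By the sign-flip exact test on within-number differences, which cannot go below 0.25 with 3 pairs, p ran from 0.25 to 0.75.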
